A study of Mus musculus with 6 samples.

Results

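The DNA repair and damage checkpoint genes described here were a list of 47 genes, 46 of which were measured among 18193 genes on expression arrays of mouse LSK cells. LSK cells are the lineage-negative, Sca1-positive and Kit-positive fraction of bone marrow, which holds the blood stem cells and early multipotent progenitors. The cells came from the marrow of adult mice 10 to 14 weeks old and were separated by antibody staining for CD34 and Flt3 into CD34+Flt3hi, CD34+Flt3- and CD34-Flt3- cells, with 2 arrays for each group. No genotype, strain or treatment is named in the labels, and the study asked how gene expression differs between LSK fractions of different function. The members were chosen by name, with earlier results of these data known. Each was read from its brightest probe set, the one with the highest mean over all 6 arrays. Xrcc2 was not analysed here.

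Cells mend DNA by several routes. Homologous recombination copies an intact sister strand and is used after replication, the Fanconi anaemia proteins open crosslinked strands and hand the break to recombination, and end joining rejoins broken ends without a template at any stage of the cycle. Mismatch repair corrects replication errors, base excision repair replaces single damaged bases, and nucleotide excision repair removes bulky lesions. The kinases Atm and Atr sense breaks and stalled forks and stop the cycle through Chek2 and Chek1. In the blood system most long-term stem cells rest outside the cycle, and patients and mice that lack Fanconi proteins lose marrow stem cells.

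All values below are log2 intensities, or differences of them, and groups were compared with limma over all genes. Across the members the mean over the 6 arrays ran from 4.27 for Bard1 to 10.32 for Trp53bp1, with background at 4.50, although intensities of different probe sets cannot be ranked as RNA amounts. Group means of Bard1, Rad54b and Lig4 lay below background in at least 1 group. The CD34-Flt3- arrays agreed least, since 8 members (17.4%, against 7.43% of all genes) differed over 2-fold between their 2 arrays, compared with 0 members in CD34+Flt3hi and 1 in CD34+Flt3- cells. In 31 of 46 members CD34-Flt3- replicate 2 read lower than replicate 1, as did 50.6% of all genes. Whether both arrays of a group are different animals or sorts is not stated, so the p-values describe array-to-array spread only, and that spread may be technical.

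Sort antigens and lineage markers were read as a check of the labels. Cd34 and Flt3 were highest in CD34+Flt3hi cells (11.4 and 11.3 for Cd34, 12.0 and 11.7 for Flt3) and were above background in all groups. Flt3 overlapped between the other gates, at 8.84 and 9.81 in CD34+Flt3- and 7.65 and 9.16 in CD34-Flt3- cells. Kit did not follow them, with 9.63 and 9.22 in CD34+Flt3hi, 10.26 and 8.82 in CD34+Flt3- and 10.99 and 9.83 in CD34-Flt3- cells. Ly6a, the Sca1 gene, was not analysed here. Mean levels of Hba-a1, Alas2 and Slc4a1 of red cells, S100a8, S100a9 and Ltf of neutrophils, Pax5 and Ms4a1 of B cells, and Cd3d and Cd3g of T cells lay below background, but other genes of these lists did not. Over all arrays Lyz2 averaged 9.72, Csf1r 7.5, Cd79b 7.27, Cd3e 6.34 and Cd4 6.16, and the lists had 3 of 5 red cell, 3 of 9 neutrophil and monocyte, 2 of 8 B and 4 of 7 T and NK genes below background. Csf1r, the receptor of a macrophage growth factor, was the 1 neutrophil and monocyte gene called higher in CD34+Flt3hi than CD34-Flt3- cells (difference 3.16). In that comparison 2.62% of all genes were called higher and 3.50% lower. Megakaryocyte and platelet genes moved with the groups. Of the 6 measured, 5 were lower in CD34+Flt3hi than CD34-Flt3- cells, and their summed linear intensity was 268 and 214 in CD34+Flt3hi, 2189 and 969 in CD34+Flt3- and 3272 and 3435 in CD34-Flt3- cells. Mast cell and basophil genes summed to 492 and 429 in CD34+Flt3hi, 3599 and 2192 in CD34+Flt3- and 3390 and 3758 in CD34-Flt3- cells, with 2 of 5 lower in CD34+Flt3hi than CD34-Flt3- cells. Gata2 made up most of this sum (log2 8.09 and 8.29 in CD34+Flt3hi, 11.60 and 11.78 in CD34-Flt3- cells). By the sign of the mean 2 of 5 read higher in CD34+Flt3hi cells, among them Mcpt8 (7.35 and 6.12 against 4.75 and 5.23). Fcer1a and Ms4a2 averaged below background. Red cell genes summed to 171 and 165 in CD34+Flt3hi, 468 and 179 in CD34+Flt3- and 1251 and 351 in CD34-Flt3- cells, with 1 of 5 lower in CD34+Flt3hi than CD34-Flt3- cells. Most of the red cell sum in CD34-Flt3- cells came from Klf1 (log2 9.92 and 7.46) and Epor (7.90 and 6.81). The part of these cell types in the results below was not tested. In sorted bulk samples, fewer cells of a kind and less RNA per cell cannot be told apart.

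Among the members, limma without a block made calls between the outer gates only. In CD34+Flt3hi against CD34-Flt3- cells, 7 of 46 members were higher and 0 lower at an adjusted p of 0.05, where 2.62% of all genes were called higher and 3.50% lower. The 7 were Brca1, Rad51ap1, Rad54l and Rad54b of homologous recombination, Exo1, an exonuclease of mismatch repair and end resection, the checkpoint kinase gene Chek1, and Xpc, which recognises lesions for nucleotide excision repair. At an unadjusted p of 0.05, 17 members were higher and 0 lower, against 6.77% and 11.6% of all genes. The arrays of these groups did not overlap in 24 members that read higher and 4 that read lower (Rad52, Xrcc4, Ogg1 and Xpa), against 18.8% and 29.1% of all genes. The median difference of the members was 0.45, and that of all genes -0.07. The count changed with single arrays left out: without CD34+Flt3hi replicate 1 only Rad54b passed, without CD34+Flt3hi replicate 2 none did, without CD34+Flt3- replicate 1 or 2 there were 4, and without CD34-Flt3- replicate 1 there were 16. Without CD34-Flt3- replicate 2 there were again 7, of which 5 were the same genes.

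Neither of the smaller steps gave a call among the members in limma without a block. Between CD34+Flt3- and CD34-Flt3- cells limma called 0 higher and 0 lower (0.770% and 1.33% of all genes), with 11 higher and 1 lower (Rad52) at an unadjusted p of 0.05 (4.81% and 12.1% of all genes). Rad54b and Chek1 lay just outside the threshold, with an adjusted p of 0.0526 and 0.0528. Leaving out CD34-Flt3- replicate 1 or 2 gave 7 and 4 calls higher, and repeating quantile normalization gave 4. Between CD34+Flt3hi and CD34+Flt3- cells limma also called 0 higher and 0 lower (0.385% and 0.225% of all genes), with Brca1, Xpc and Xrcc6 higher and 0 lower at an unadjusted p of 0.05 (4.17% and 2.58% of all genes). Arrays of CD34+Flt3- and CD34-Flt3- cells did not overlap in 17 members that read higher and 3 that read lower, against 15.6% and 28.6% of all genes, and those of CD34+Flt3hi and CD34+Flt3- cells in 18 and 3, against 22.7% and 17.7%.

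**Figure D1:**
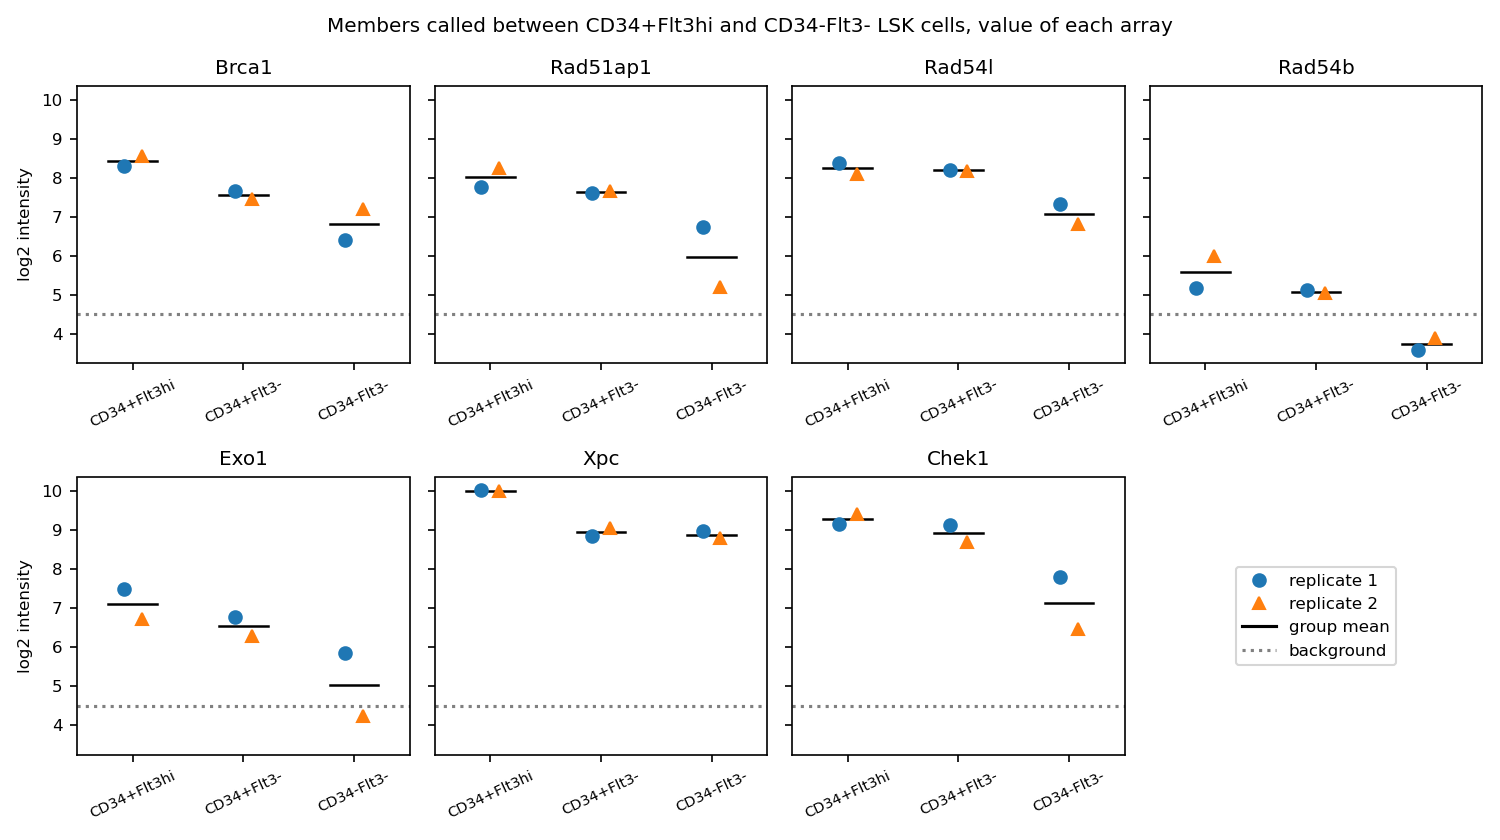
Log2 intensity (vertical axis) of the 7 members called between CD34+Flt3hi and CD34-Flt3- cells, on each array of the 3 groups, with group means as bars and background as a dotted line. Rad54b lies below background on both CD34-Flt3- arrays, and Xpc is high on the CD34+Flt3hi arrays alone, at 10.04 and 10.01.

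Homologous recombination gave 4 of the 7 calls, out of 11 measured genes. Brca1 (Entrez gene 12189), which with Bard1 directs broken ends into recombination, read 8.31 and 8.57 in CD34+Flt3hi, 7.65 and 7.45 in CD34+Flt3- and 6.40 and 7.20 in CD34-Flt3- cells. The 3 groups did not overlap, and CD34+Flt3hi exceeded CD34-Flt3- cells 3.11-fold (log2 1.64 ± 0.32, SE, n = 2; limma adjusted p = 0.0139). Rad51ap1 (Entrez gene 19362), a partner of the recombinase that stimulates strand invasion, read 7.77 and 8.26 in CD34+Flt3hi, 7.60 and 7.67 in CD34+Flt3- and 6.74 and 5.19 in CD34-Flt3- cells. Both CD34-Flt3- arrays were below the others and lay far from each other. Its rise in CD34+Flt3hi over CD34-Flt3- cells was 4.13-fold (log2 2.05 ± 0.44, adjusted p = 0.0241), and 1.27 on the log2 scale without CD34-Flt3- replicate 2.

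The paralogous motor proteins Rad54l and Rad54b remodel DNA around the recombinase filament. Rad54l (Entrez gene 19366) read 8.38 and 8.10 in CD34+Flt3hi, 8.20 and 8.18 in CD34+Flt3- and 7.33 and 6.81 in CD34-Flt3- cells. The Flt3hi and CD34+Flt3- arrays overlapped while both CD34-Flt3- arrays were lower, and the rise between the outer gates was 2.25-fold (log2 1.17 ± 0.28, adjusted p = 0.035). It was 0.91 on the log2 scale and no longer passed without CD34-Flt3- replicate 2. Rad54b (Entrez gene 623474) read 5.17 and 5.99 in CD34+Flt3hi, 5.11 and 5.04 in CD34+Flt3- and 3.57 and 3.89 in CD34-Flt3- cells. It was near background in the CD34+ groups and below it in CD34-Flt3- cells, so the rise is given as at least 2.12-fold (adjusted p = 0.0057).

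Of the other recombination genes, Brca2, which loads the recombinase, read 8.37 and 8.62 in CD34+Flt3hi, 8.47 and 8.22 in CD34+Flt3- and 7.13 and 7.81 in CD34-Flt3- cells, and its difference between the outer gates, 1.02 ± 0.29, did not pass (adjusted p = 0.0773). The bridging protein gene Palb2 differed by 0.26. The Brca1 partner gene Bard1 averaged 4.51 in CD34+Flt3hi and 3.85 in CD34-Flt3- cells, at and below background, so no size of difference can be given for it. Rad50 and Nbn, which encode subunits of the complex that binds broken ends, both differed by 0.57 (95% interval -0.08 to 1.22 for Rad50). Xrcc3, a paralogue of the recombinase, gave -0.04. Rad52, an annealing protein, ran the other way from the list. It read 5.69 and 6.33 in CD34+Flt3hi, 6.11 and 5.63 in CD34+Flt3- and 6.56 and 6.72 in CD34-Flt3- cells, with a difference of -0.63 between the outer gates that did not pass (adjusted p = 0.337).

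Fanconi genes read higher in CD34+Flt3hi than CD34-Flt3- cells in all 8 cases by the sign of the mean (42.3% of all genes did), but 0 of 8 passed (limma; 3 at an unadjusted p of 0.05). Fanca, of the core complex that marks stalled forks, came nearest. It read 7.12 and 6.74 in CD34+Flt3hi, 6.69 and 6.71 in CD34+Flt3- and 6.0 and 4.52 in CD34-Flt3- cells, a difference of 1.67 ± 0.43 between the outer gates (adjusted p = 0.0508). CD34-Flt3- replicate 2 lay at background, far below replicate 1. Fanci, a subunit of the clamp that the core complex marks with ubiquitin, read 7.93 and 7.28 in CD34+Flt3hi, 7.19 and 7.01 in CD34+Flt3- and 6.65 and 6.22 in CD34-Flt3- cells (difference 1.17 ± 0.31, adjusted p = 0.0587). These arrays stepped down from group to group with no overlap. The other subunit of that clamp, Fancd2, differed by 0.47, the helicase genes Brip1 and Fancm by 0.64 and 0.43, the ubiquitin ligase gene Fancl by 0.59 (-0.016 without CD34-Flt3- replicate 2), and the core genes Fancg and Fancc by 0.33 and 0.04.

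End joining genes had no common direction, and 0 of 5 passed between the outer gates (2 at an unadjusted p of 0.05). Xrcc6, which encodes the Ku70 subunit that caps broken ends, read 10.09 and 9.96 in CD34+Flt3hi, 9.28 and 9.07 in CD34+Flt3- and 9.36 and 8.91 in CD34-Flt3- cells. Its 2 CD34+Flt3hi arrays stood above all others, with differences of 0.89 ± 0.24 against CD34-Flt3- (adjusted p = 0.0613) and 0.85 ± 0.24 against CD34+Flt3- cells (adjusted p = 0.268). Xrcc5, the gene of its partner Ku80, read 7.20 and 6.82 in CD34+Flt3hi, 7.16 and 7.27 in CD34+Flt3- and 7.69 and 7.20 in CD34-Flt3- cells, a difference of -0.43 between the outer gates. Prkdc, the kinase that Ku recruits, read 7.95 and 8.03 in CD34+Flt3hi, 7.94 and 7.37 in CD34+Flt3- and 7.38 and 7.13 in CD34-Flt3- cells (difference 0.73 ± 0.28, adjusted p = 0.2). The ligation genes Xrcc4 and Lig4 gave -0.45 and -0.20, and Lig4 was at background.

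Among 4 mismatch repair genes Exo1 alone passed. Exo1 (Entrez gene 26909) read 7.51 and 6.74 in CD34+Flt3hi, 6.79 and 6.28 in CD34+Flt3- and 5.84 and 4.24 in CD34-Flt3- cells, with 1 CD34-Flt3- array below background. The rise between the outer gates was 4.23-fold (log2 2.08 ± 0.49, adjusted p = 0.0336), and it was 1.28 (adjusted p = 0.0674) without CD34-Flt3- replicate 2. Pms2, the nuclease subunit, read 7.53 and 7.39 in CD34+Flt3hi, 7.30 and 7.36 in CD34+Flt3- and 7.10 and 6.05 in CD34-Flt3- cells, a difference of 0.88 ± 0.35 (adjusted p = 0.206). The mismatch-binding genes Msh6 and Msh3 differed by 0.69 and 0.21.

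Excision repair gave 1 call in 10 genes. Xpc (Entrez gene 22591) read 10.04 and 10.01 in CD34+Flt3hi, 8.85 and 9.05 in CD34+Flt3- and 8.97 and 8.80 in CD34-Flt3- cells. The arrays of the 2 lower groups overlapped, and the rise of CD34+Flt3hi over CD34-Flt3- cells was 2.20-fold (log2 1.14 ± 0.22, adjusted p = 0.0144). CD34+Flt3hi minus CD34+Flt3- cells gave 1.07 ± 0.22 (adjusted p = 0.0914), and CD34+Flt3- minus CD34-Flt3- cells 0.06. The other 3 nucleotide excision genes did not pass. Ercc1, a subunit of the nuclease that cuts beside the lesion, read 8.52 and 8.69 in CD34+Flt3hi, 8.55 and 8.99 in CD34+Flt3- and 8.17 and 8.38 in CD34-Flt3- cells (difference 0.33 between the outer gates). The helicase gene Ercc2 differed by 0.46 and the scaffold gene Xpa by -0.48.

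No base excision or single-strand break gene passed (0 of 6 by limma, 1 at an unadjusted p of 0.05). Ung, which removes uracil, read 8.68 and 8.82 in CD34+Flt3hi, 8.25 and 8.85 in CD34+Flt3- and 7.42 and 8.10 in CD34-Flt3- cells, a difference of 0.99 ± 0.31 between the outer gates (adjusted p = 0.106). Parp1, which signals strand breaks, read 9.45 and 9.41 in CD34+Flt3hi, 9.04 and 8.72 in CD34+Flt3- and 9.62 and 8.62 in CD34-Flt3- cells, and its CD34-Flt3- arrays spanned all others. The difference of 0.31 became -0.20 without CD34-Flt3- replicate 2. Parp2 gave -0.08 (95% interval -0.63 to 0.47), the scaffold gene Xrcc1 0.06, and Ogg1, which removes oxidised guanine, -0.38. The ligase gene Lig3 read 6.89 and 6.72 in CD34+Flt3hi, 6.79 and 6.53 in CD34+Flt3- and 7.32 and 5.42 in CD34-Flt3- cells. Its difference between the outer gates was 0.44, but -0.52 without CD34-Flt3- replicate 2 and 1.39, a call, without replicate 1.

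In the checkpoint class of 6 genes only Chek1 passed. Chek1 (Entrez gene 12649) read 9.16 and 9.41 in CD34+Flt3hi, 9.15 and 8.70 in CD34+Flt3- and 7.80 and 6.47 in CD34-Flt3- cells. Both CD34-Flt3- arrays were below the others, and CD34+Flt3hi exceeded CD34-Flt3- cells 4.44-fold (log2 2.15 ± 0.40, adjusted p = 0.0114). Without CD34-Flt3- replicate 2 the difference was 1.49. Chek2 read 7.63 and 7.86 in CD34+Flt3hi, 7.89 and 7.83 in CD34+Flt3- and 7.99 and 7.11 in CD34-Flt3- cells, with a difference of 0.19 (95% interval -0.52 to 0.91). Atm read 8.41 and 8.37 in CD34+Flt3hi, 8.43 and 7.35 in CD34+Flt3- and 8.46 and 8.02 in CD34-Flt3- cells (difference 0.15), and Atr differed by 0.28. The chromatin mediators Mdc1 and Trp53bp1, which gather at breaks, gave 0.08 and -0.04, with a 95% interval of -0.58 to 0.50 for Trp53bp1. The RecQ helicase Blm, which unwinds recombination intermediates, read 8.15 and 7.86 in CD34+Flt3hi, 8.03 and 7.69 in CD34+Flt3- and 7.28 and 7.01 in CD34-Flt3- cells (difference 0.86 ± 0.27, adjusted p = 0.11). Wrn, its relative, read 8.13 and 8.31 in CD34+Flt3hi, 8.15 and 7.76 in CD34+Flt3- and 8.33 and 7.39 in CD34-Flt3- cells (difference 0.35).

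**Figure D2:**
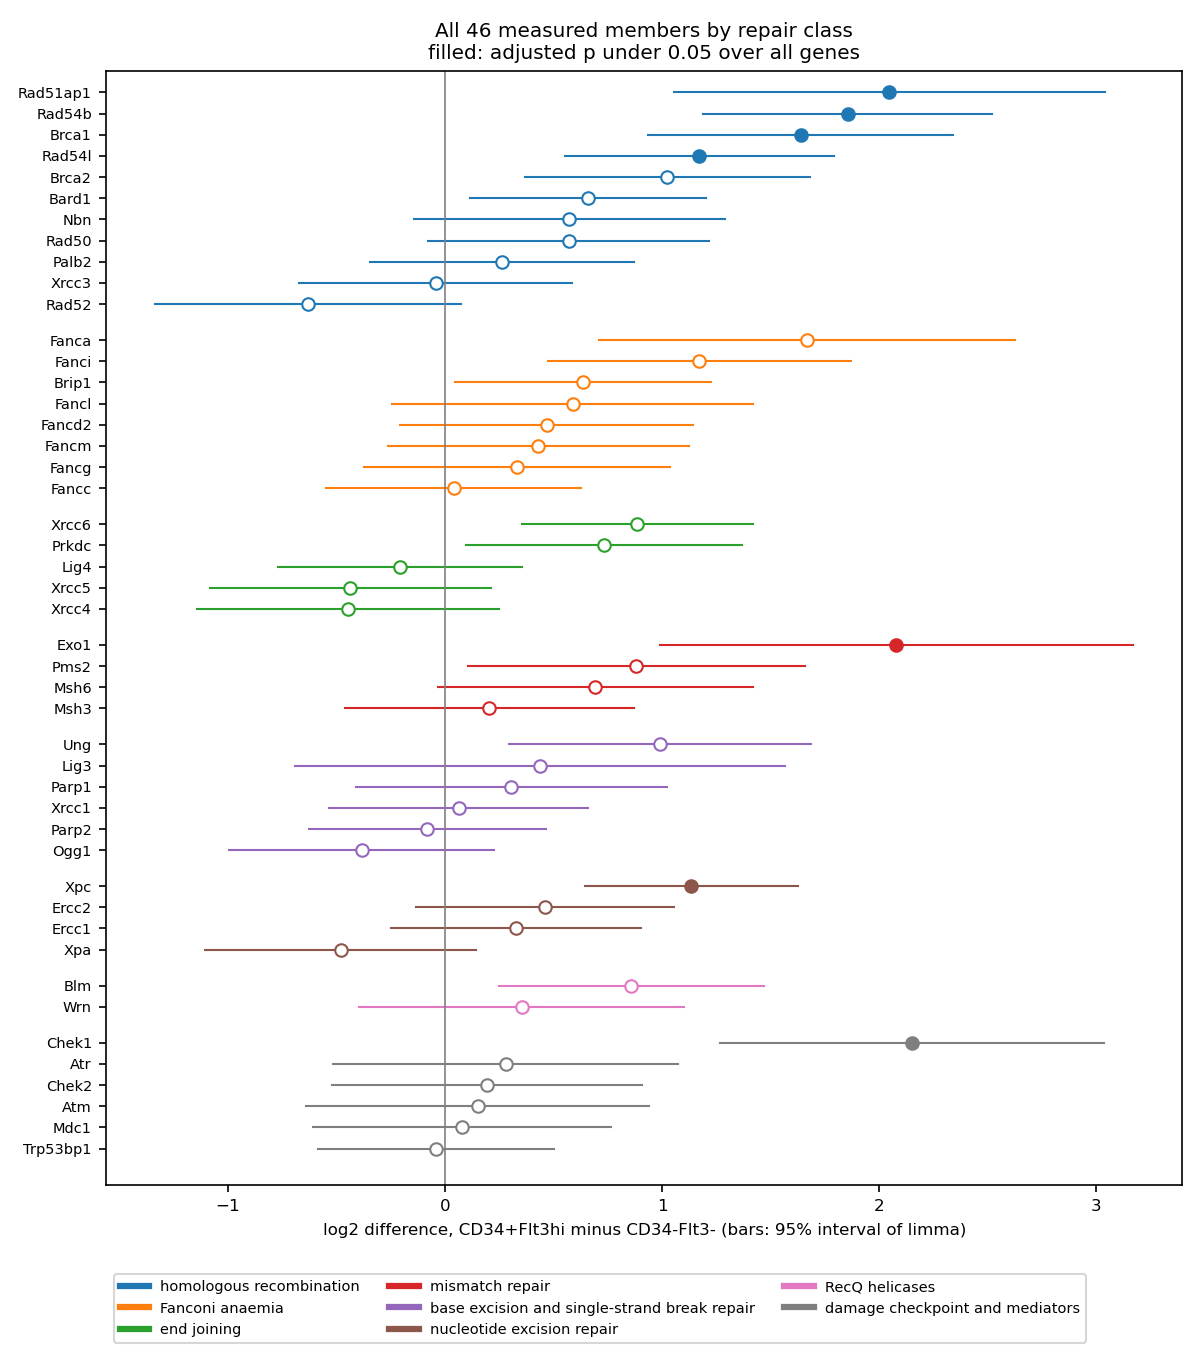
Log2 difference of CD34+Flt3hi from CD34-Flt3- cells (horizontal axis) for the 46 measured members, grouped by repair class, with 95% intervals from limma and filled points for adjusted p under 0.05. Recombination holds 4 of the 7 filled points, and end joining genes lie on both sides of 0. Bard1, Rad54b and Lig4 are drawn at their readings although a group mean of each lies below background.

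Recombination and Fanconi genes were set against end joining, mismatch and excision repair, 19 genes on each side. Between CD34+Flt3hi and CD34-Flt3- cells 4 of 19 and 2 of 19 passed, against 2.62% of all genes called higher. The median differences were 0.59 and 0.33, with -0.07 over all genes. Arrays did not overlap in 13 and 9 genes that read higher and in 1 and 3 that read lower, against 18.8% and 29.1% of all genes. Between CD34+Flt3- and CD34-Flt3- cells the medians were 0.42 and 0.12 (all genes -0.10). There, arrays did not overlap in 10 and 5 genes that read higher and in 1 and 2 that read lower, against 15.6% and 28.6% of all genes. Between CD34+Flt3hi and CD34+Flt3- cells the medians were 0.24 and 0.12 (all genes 0.03). The medians of the first set were thus above those of the second by 0.26, 0.30 and 0.11. A gap can also be taken on each array, between the median deviations of the sets from their 6-array means. It was 0.055 and 0.13 in CD34+Flt3hi, 0.041 and 0.16 in CD34+Flt3- and -0.27 and -0.14 in CD34-Flt3- cells, with an SD between replicate arrays of 0.08, and the CD34-Flt3- arrays lay below all others. By this measure CD34+Flt3hi and CD34+Flt3- cells, at means of 0.092 and 0.100, did not differ by more than that SD. Genes are not replicates, and no test was made of the gap. It was not a property of every class: the 4 mismatch repair genes had a median of 0.79 between the outer gates, the 11 recombination genes 0.66, the 8 Fanconi genes 0.53, and the 5 end joining genes -0.20. The recombination median was the value of Bard1 and the end joining median that of Lig4, neither clear of background. With group means below background set to it, a choice made after seeing the data, these medians were 0.57 and -0.09.

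**Figure D3:**
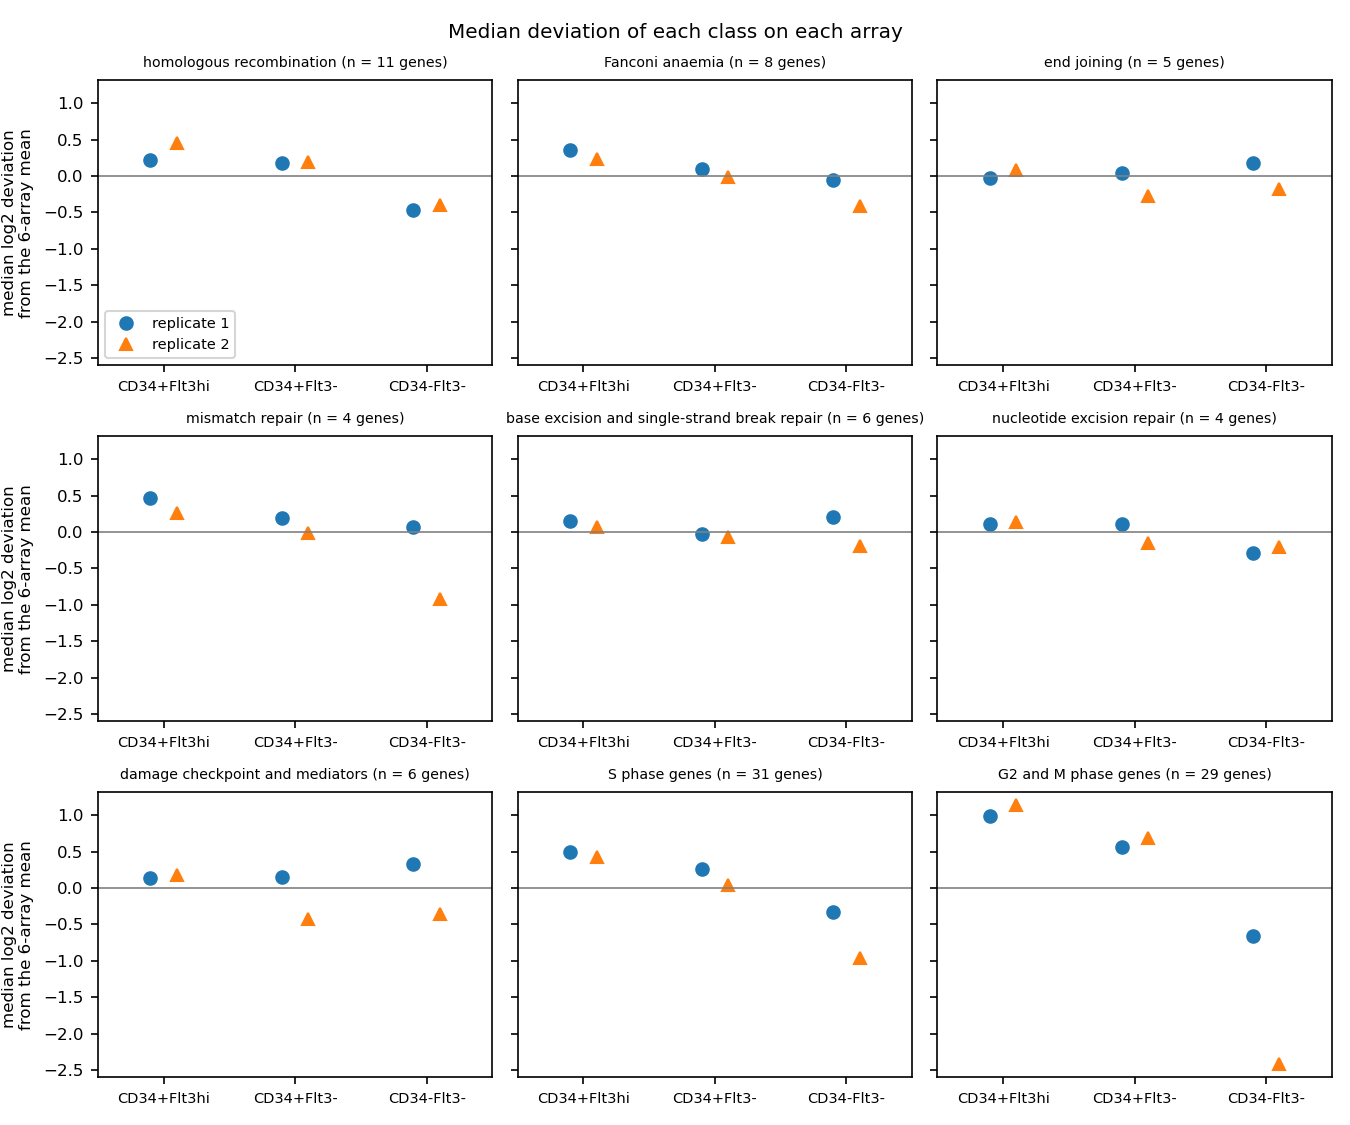
Median log2 deviation of the genes of each class from their mean over the 6 arrays (vertical axis), on each array of the 3 groups, with S phase and G2 and M phase genes for comparison. The recombination genes lie at -0.46 and -0.39 on the CD34-Flt3- arrays and above 0 on the other 4, and the G2 and M phase genes lie at -0.66 and -2.42.

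The members differed in how much of the change fell at each step, but no such difference passed the test without a block. Chek1, Rad51ap1, Rad54l and Exo1 had the larger gap in CD34+Flt3- over CD34-Flt3- cells (1.79, 1.67, 1.12 and 1.49, against 0.37, 0.38, 0.05 and 0.59 between CD34+Flt3hi and CD34+Flt3- cells). For Rad54b the lower step has only a bound (at least 0.57, or 1.49-fold), as CD34-Flt3- cells read below background. Its upper step was 0.51, so by group means the lower step was the larger, though the bound and the upper step lie close together. Brca1 gave 0.75 at this lower step and 0.89 at the upper one, Xpc 0.06 and 1.07, and Xrcc6 0.04 and 0.85. For no member did the upper step differ from the lower at an adjusted p of 0.05 in limma without a block (0 of 46). Of all genes 5 passed at that threshold. At an unadjusted p of 0.05 the upper minus the lower step was positive for Xpc and negative for Rad54l. It was positive for 1182 and negative for 509 of all 18193 genes. The upper minus the lower step was -1.42 ± 0.69 for Chek1 (adjusted p = 0.567), -1.29 for Rad51ap1, -1.07 for Rad54l and 1.01 ± 0.38 for Xpc (adjusted p = 0.484). The 2 steps share the CD34+Flt3- arrays.

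Cell cycle genes moved with the same groups. No member belongs to either cycle list used here. Of 31 S phase genes 17 were higher in CD34+Flt3hi than CD34-Flt3- cells and 0 lower (median difference 1.0), and of 29 G2 and M phase genes 28 were higher and 0 lower (median 2.60), against 2.62% of all genes called higher. The median deviation of the S phase genes was 0.50 and 0.43 in CD34+Flt3hi, 0.26 and 0.04 in CD34+Flt3- and -0.33 and -0.96 in CD34-Flt3- cells. CD34-Flt3- replicate 2 was thus the lowest array for S phase genes. Of the called members, Chek1, Rad51ap1, Rad54l, Exo1 and Xpc were lowest on that array, and Brca1 and Rad54b on CD34-Flt3- replicate 1. Uncalled members were also split. Among others, Fanca, Fanci, Fancl, Rad50, Nbn, Palb2, Pms2, Msh6, Prkdc, Lig3 and Blm were lowest on replicate 2, and Brca2, Bard1, Brip1 and Ung on replicate 1. In 31 of 46 members CD34-Flt3- replicate 2 read below replicate 1, as did 50.6% of all genes. Among E2F, Rb and related regulators of the cycle, E2f7 and E2f8 were higher in CD34+Flt3hi cells (2 of 17). The part of cell cycle in the repair differences was not tested.

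Other repair genes outside the members were read from lists of the same routes. Between CD34+Flt3hi and CD34-Flt3- cells 2.62% of all genes were called higher, and the median of all genes was -0.07. Of 26 other recombination and Fanconi genes only Eme1, of a nuclease that cuts recombination joints, was higher in CD34+Flt3hi than CD34-Flt3- cells (log2 2.08, adjusted p = 0.00905), and the median was 0.20. Of 29 other excision repair genes 3 were higher, the glycosylase genes Neil3 (1.39) and Mbd4 (1.10) and the ligase gene Lig1 (1.07), with a median of -0.06. Of 17 other checkpoint genes 7 were higher, with a median of 0.77. They were led by Tipin (1.58, adjusted p = 0.0066), which protects forks, Cdc25c (2.60), a phosphatase that starts mitosis, and Clspn (1.77), the adaptor through which Atr activates Chek1. Of 4 other mismatch repair genes 0 passed (limma, with 1 at an unadjusted p of 0.05). Of 6 other end joining genes 1 passed, Dntt, which adds bases at immune receptor joints, and the median was 0.06. Dntt differed by 5.37 between the outer gates (limma adjusted p = 5.0e-05). It was also called between CD34+Flt3hi and CD34+Flt3- cells, with a difference of 5.82 (limma adjusted p = 2.28e-05). None of these lists had a gene called lower.

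The list of targets of p53, the factor that damage signals activate, gave no gene called higher. Of 22 measured targets 0 were higher and 2 lower in CD34+Flt3hi than CD34-Flt3- cells, Perp (adjusted p = 0.021; at least 1.79-fold lower, being below background in CD34+Flt3hi cells) and the kinase gene Plk2 (-1.34, adjusted p = 0.0333), where 3.50% of all genes were called lower. Between CD34+Flt3- and CD34-Flt3- cells Plk2 (-2.06, adjusted p = 0.0176) and Sesn1 (-1.07, adjusted p = 0.0341), which restrains growth signalling, were lower. There 1.33% of all genes were called lower. The median of the list was -0.40 and -0.61 in these comparisons, with -0.07 and -0.10 over all genes. Its deviation on single arrays was -0.13 and -0.04 in CD34+Flt3hi, -0.13 and -0.31 in CD34+Flt3- and 0.43 and 0.20 in CD34-Flt3- cells, so the CD34-Flt3- arrays were the highest.

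The size of several differences depended on the probe set. Of the 46 members 29 had several probe sets, 106 probe sets in all. For Chek1 a second bright probe set gave 1.78 between the outer gates in place of 2.15, but its remaining, dimmer ones gave only 0.06 to 0.24. For Rad51ap1 the other 3 gave 1.37, 0.45 and 0.53 in place of 2.05. The other probe sets of Brca1 gave only 0.01 to 0.16, those of Rad54l 0.06 to 0.52 and those of Exo1 0.14 and 0.33. Each of these was dimmer than the one used, and some lay below background. With the mean of all probe sets of a gene, 3 members passed (Rad54b, Xpc and Chek1), of which Rad54b and Xpc have 1 probe set each. The other probe set of Fanca, near background, gave -0.21 in place of 1.67. For Parp1 a probe set almost as bright as the one used gave 0.87 in place of 0.31. Fancd2 also gave more in another probe set. Its next probe set gave 1.37 where the brightest gave 0.47. For Trp53bp1 the 5 other probe sets ran from -0.48 to 1.05.

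**Figure D4:**
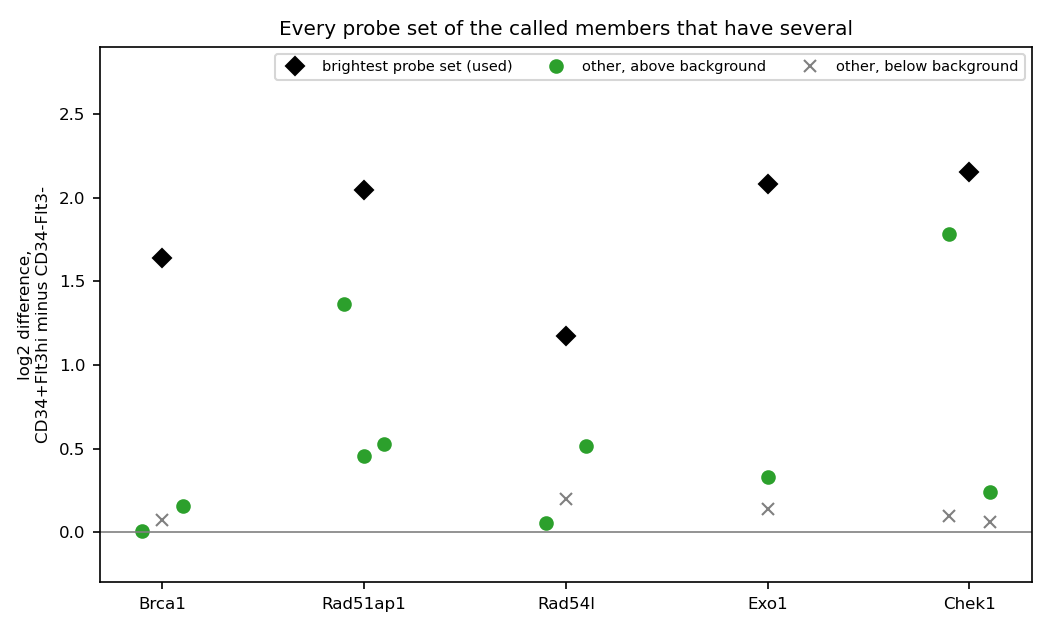
Log2 difference of CD34+Flt3hi from CD34-Flt3- cells (vertical axis) in each probe set of the 5 called members that have several. Diamonds are the brightest probe sets, circles and crosses the others above and below background, and the others of Brca1 lie at 0.01 to 0.16 where the brightest is at 1.64.

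Promoter sequences of the members were read from RefSeq (build GRCm38.p6), as windows from 250 bases before each start site to a short stretch after it, and 38 of the 46 measured members had a window. These sequences are shown because genes of replication and repair are classic targets of E2F factors and of CCAAT-binding NF-Y. An E2F word (TTTCGCGC, TTTGGCGC or TTTCCCGC on either strand, where the first 2 can overlap on opposite strands) was present in 8 of 38 members (Brca2, Bard1, Fancg, Xrcc6, Msh3, Msh6, Chek2 and Mdc1), or 21.1%, against 2.76% of 17492 protein-coding genes and 2.12% of all 27025 genes with a window. It was in 3 of 15 recombination and Fanconi genes, 3 of 16 end joining, mismatch and excision genes, and 0 of the 4 called members with a window. CCAAT on either strand was in 21 of 38 (55.3%, against 42.3% of protein-coding genes) and in 3 of the 4 called members, Brca1, Rad51ap1 and Rad54l. The words TTTGAA and TTCGAA of the cell cycle homology region, on either strand, were in 2 of 38 (5.26%, against 20.2% of protein-coding genes). A match describes the letters of the window and not a bound site. The 250 bases before the start are given for 2 called members with CCAAT and 3 uncalled members with an E2F word, 5′ to 3′ on the gene's strand, with E2F words and CCAAT in capitals, either as such or as their reverse complement.
Rad51ap1 (chr6:126939588-126939837, minus strand): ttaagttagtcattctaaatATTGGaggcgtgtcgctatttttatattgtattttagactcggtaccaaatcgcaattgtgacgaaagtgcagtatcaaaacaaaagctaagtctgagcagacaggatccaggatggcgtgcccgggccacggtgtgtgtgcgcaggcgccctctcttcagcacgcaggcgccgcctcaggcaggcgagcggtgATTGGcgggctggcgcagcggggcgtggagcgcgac
Rad54l (chr4:116123691-116123940, minus strand): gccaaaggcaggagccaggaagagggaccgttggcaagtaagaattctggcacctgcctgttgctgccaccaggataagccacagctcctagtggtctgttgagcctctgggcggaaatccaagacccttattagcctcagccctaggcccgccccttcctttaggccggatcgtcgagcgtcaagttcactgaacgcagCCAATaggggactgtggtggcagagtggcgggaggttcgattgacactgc
Fancg (chr4:43010302-43010551, minus strand): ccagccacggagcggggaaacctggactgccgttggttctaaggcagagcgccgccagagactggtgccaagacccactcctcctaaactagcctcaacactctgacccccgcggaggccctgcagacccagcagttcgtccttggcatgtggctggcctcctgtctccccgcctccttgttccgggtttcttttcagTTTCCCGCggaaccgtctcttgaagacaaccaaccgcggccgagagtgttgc
Xrcc6 (chr15:82016119-82016368, plus strand): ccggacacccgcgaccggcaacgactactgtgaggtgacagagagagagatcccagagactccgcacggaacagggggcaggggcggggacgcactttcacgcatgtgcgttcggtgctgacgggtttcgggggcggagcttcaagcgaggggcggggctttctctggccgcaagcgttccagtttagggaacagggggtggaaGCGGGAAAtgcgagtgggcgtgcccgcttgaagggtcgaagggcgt
Mdc1 (chr17:35841248-35841497, plus strand): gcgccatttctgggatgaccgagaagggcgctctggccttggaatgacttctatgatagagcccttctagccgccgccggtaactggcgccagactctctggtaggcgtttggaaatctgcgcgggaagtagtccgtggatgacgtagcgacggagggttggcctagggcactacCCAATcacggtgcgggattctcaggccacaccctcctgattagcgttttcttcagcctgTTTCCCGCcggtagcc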

How the data were processed

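Per the labels' protocols, cells were sorted into lysis buffer, RNA was extracted by an RNeasy Micro kit, and biotinylated cRNA was made by an Affymetrix small-sample method that transcribes in vitro more than once. The deposited values were RMA (robust multi-array average) intensities per the submitters' processing notes, with no version and no statement of which arrays were normalized together. They ran from 6.50 to 24173 and were taken as linear, an inference from this range, and log2 was taken for every test. Arrays have no read depth, and their number limits the precision.

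Of 45101 probe sets, 64 were controls, 34945 carried 1 gene symbol, 932 several and 9160 none. Symbols came from GEO's platform annotation and were updated by gene identifier (99.1% matched). The brightest probe set stood for each of 18193 genes. Background, log2 4.50, was the value under which 90% of the single-array readings of 27 bacterial control probe sets lay. A group with a mean below it was set to it, and the fold is then given as at least. limma 3.58.1 in R 4.3.3 was given all 6 arrays and a mean per group (empirical Bayes with an intensity trend, 3 residual and 6.86 prior degrees of freedom), two-sided, with Benjamini-Hochberg adjustment over all genes and a threshold of 0.05. With 2 arrays on each side, 0.333 is the smallest p of an exact permutation test, so none was used. The pipeline was tested on simulated data with changes of known size. Per-array values were given for every called member and for the 2 members of each class with the largest moderated F, and for Brca2, Rad52, Xrcc5, Lig3 and Chek2, which were chosen after their values were seen, and list examples were the genes with the smallest adjusted p. The members, classes and lists were chosen with earlier results of these data known. Alternatives were a block of the codes in the sample titles, no trend, a robust prior, repeated quantile normalization, median centring, genes above background only, the mean of all probe sets, no x or s probe sets, the 4 arrays compared, another class for Exo1, Blm and Wrn, and leaving out each array. Promoter words were searched in Python 3.11.15, and matplotlib 3.10.9 drew the figures.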

Additional observations from a re-analysis of the deposited data

How the results depend on the processing

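The counts of called members rest on few arrays. Between CD34+Flt3hi and CD34-Flt3- cells the 7 calls higher became 3 with the mean of all probe sets, 4 with only the 4 arrays compared (fewer arrays in the fit) and 0 to 16 when 1 array was left out. Between CD34+Flt3- and CD34-Flt3- cells the 0 calls higher became 4 with quantile normalization repeated, 2 among genes above background (fewer genes tested) and 0 to 7 when 1 array was left out. Between CD34+Flt3hi and CD34+Flt3- cells they became 1 with only the 4 arrays compared and 0 to 1 when 1 array was left out. Where leaving out an array left 1 in a group, that array was assumed to vary like the others. The titles carry 3 codes of unstated meaning, code A marks 1 array of each group, and code B ties replicate 1 of CD34+Flt3hi to replicate 1 of CD34+Flt3- cells, so that comparison is matched throughout by code. The deviations of the code A arrays from their group means correlated across genes at 0.066, 0.058 and 0.31, the last between CD34+Flt3- and CD34-Flt3- cells. Since not every pair exceeded 0.1 the codes were not taken as pairing the arrays, although that pair did exceed it. With the replicate block of title codes 16 members were called higher between the outer gates, 9 and 3 in the other comparisons, and 3 for the difference of the steps. That block fits CD34-Flt3- replicate 1 exactly, so it rests on replicate 2 of that group alone. No alternative called a member lower. The gap between the median differences of recombination and Fanconi and the other repair genes stayed positive under all alternatives run. When 1 array was left out it ran from 0.14 to 0.38 between the outer gates and from 0.17 to 0.59 between CD34+Flt3- and CD34-Flt3- cells. Between CD34+Flt3hi and CD34+Flt3- cells it then ran from 0.055 to 0.18. With Exo1, Blm and Wrn counted with recombination it was 0.38 between CD34+Flt3- and CD34-Flt3- cells. The gap taken on each array was not positive throughout, at -0.008 for CD34+Flt3hi minus CD34+Flt3- cells. Without CD34-Flt3- replicate 2 the uncalled differences between the outer gates of 9 of 46 members turned negative: Lig3 -0.52, Chek2 -0.25, Mdc1 -0.21, Parp1 -0.20, Atr -0.15, Msh3 -0.12, Wrn -0.12, Atm -0.071 and Fancl -0.016. Without replicate 1 Parp1, Wrn and Atm were 0.81, 0.83 and 0.37, and 5 other members (Fancc, Lig4, Xrcc1, Parp2 and Trp53bp1) changed sign. Apart from a construction named beside a value, the cause of these changes was not tested.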
